A study of Mus musculus with 3 samples.

Results

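Axon guidance genes encode the cell surface and secreted cues, with their receptors, that steer growing axons and that many cells outside the nervous system also use. The genes described here were chosen by a rule on symbols, with earlier results of these data known. It covers the ephrins and Eph receptors, the semaphorins, plexins and neuropilins, the Slits and Robos, and the netrins and Unc5 receptors. The rule matched 70 of the 25410 symbols listed. Of these, 22 belong to the ephrin system, 31 to the semaphorin-plexin system, 7 to the Slit-Robo system and 8 to the netrin system. The other 2 match by name only: Unc50, a Golgi membrane protein, and Unc5cl, a death domain protein. They are counted among the 70 and described once.

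In these families a ligand on one cell, or secreted by it, binds a receptor on another and changes its cytoskeleton. Ephrin-A ligands are held by a lipid anchor and ephrin-B ligands cross the membrane, so ephrin-B proteins also signal into the cell that carries them. Bone is a known site of this signalling: ephrin-B2 and EphB4 act between osteoclasts and osteoblasts, Sema3a made by bone cells protects bone through neuropilin 1, and Sema4d made by osteoclasts restrains osteoblasts through plexin-B1.

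Expression was measured by RNA-seq of total RNA depleted of ribosomal RNA, in 3 replicate libraries of IDG-SW3, a conditionally immortalised mouse line that forms osteocyte-like cells. All 3 libraries came from cultures at day 35 of differentiation that had received 100 nM parathyroid hormone (PTH) for 24 h, and the series' design text calls the triplicate biological. Every library was treated. The vehicle libraries were not analysed here, so no response to PTH was measured, and each result is a level within treated cells of a single line. The libraries held between 35195518 and 45240005 counts, and levels are in RPKM (counts per kilobase of transcript and per 1000000 counts), as mean ± SD with n = 3. In bulk RNA, fewer cells of a type and less RNA per cell cannot be told apart. Replicate 3 was the deepest library and also had the most rows at 0, 10634 against 9329 and 8491 in replicates 1 and 2.

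Each gene was tested two-sided against fixed levels of 1 and 10 RPKM with edgeR's quasi-likelihood test over all genes above 0. A gene is called above or below a level where its adjusted p was under 0.05, and unresolved otherwise. Of the 70 genes, 64 were above 0 in at least 1 library. The test placed 25 of them above 1 RPKM (39.1%), where 43.2% of the 21012 genes tested were above it, and 20 below (31.2%), against 13.4% of all genes. Above 10 RPKM were 10 (15.6%), against 20.6% of all genes, and below 10 RPKM were 54 (84.4%), against 73.9% of all genes. The shares above both levels were thus near those of genes in general, and the median was 0.519 RPKM, against 0.497 over all 23048 genes with a known length. Without Unc50 and Unc5cl, 24 of 68 were above 1 RPKM and 9 above 10 RPKM. The count below 1 RPKM was 13 without replicate 1, 11 without replicate 2, 1 with DESeq2 and 30 with limma, so single calls below 1 RPKM depend on the test and on single libraries. In simulated data the edgeR test called 18 of 50 genes set 4-fold below 1 RPKM. A call below also depends on transcript length, since a longer transcript gives more counts at the same RPKM. Plxna4 (12.88 kb) was called below at 0.227 RPKM, while Efna3 (1.552 kb) was unresolved at 0.103 RPKM. The larger share below 1 RPKM is therefore not read as lower levels of these genes, and the part of length in it was not tested.

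The levels ran from 0 to 106 RPKM and were carried by few genes. In order, the means of the 4 systems above 10 RPKM were those of Nrp1, Epha3, Sema3c, Sema3a, Efnb2, Efnb1, Epha4, Epha2 and Slit2. Neighbours in this order whose replicates overlapped were Sema3c with Sema3a and Epha2 with Slit2, and the other neighbouring pairs among these 9 did not overlap. The order also depended on the transcript length used: with the longest transcripts Epha3 (44.8 ± 2.3 RPKM) came after Sema3c (61.3 ± 6.73) and Sema3a (45.7 ± 4.58), and Epha4 (12.9 ± 0.204) after Epha2 (13.2 ± 0.627). With the shortest, Epha3 (108 ± 5.57 RPKM) came before Nrp1 (106 ± 6.17), Sema3a (66.4 ± 6.65) before Sema3c, and Epha4 (22.6 ± 0.357) before Efnb1 (19.4 ± 1.47). Unc50 lay between Sema3a and Efnb2 at 49.5 ± 2.69 RPKM, and its replicates overlapped with those of Sema3a. Unc5cl stood at 0.0211 ± 0.0201 RPKM.

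**Figure D1:**
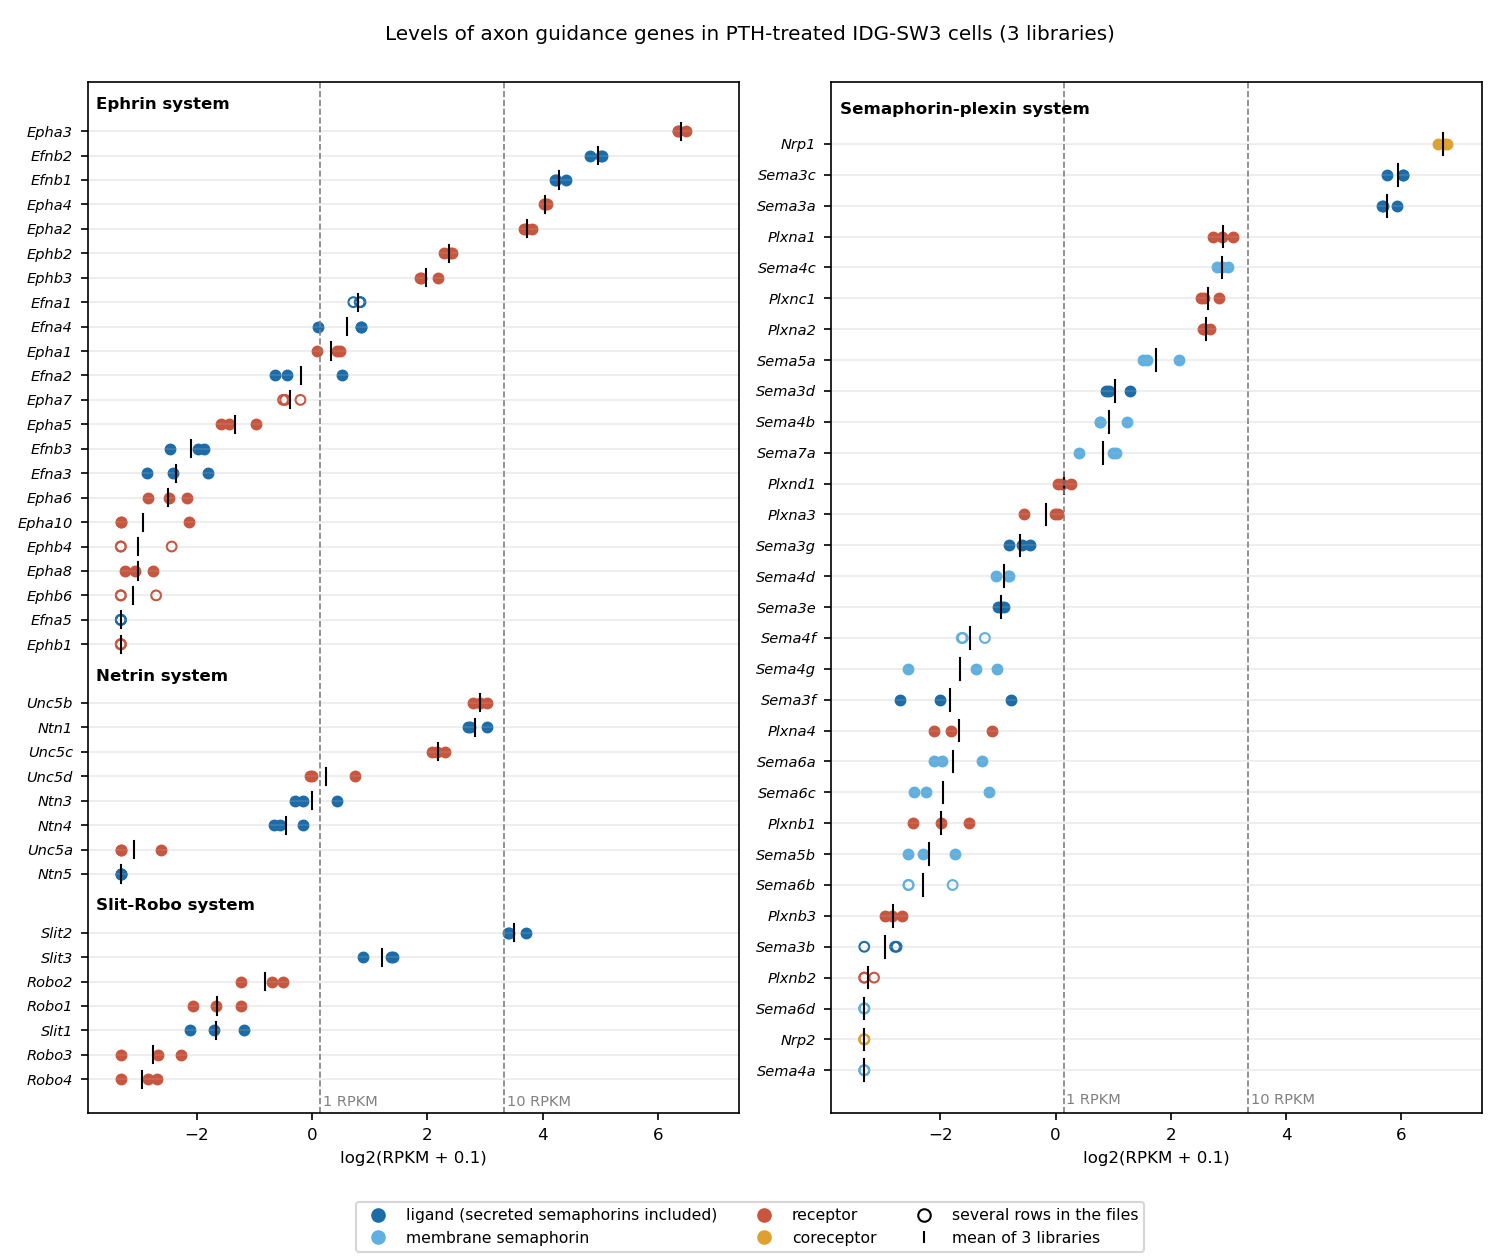
Level of each of the 68 genes of the 4 systems as log2(RPKM + 0.1), with 1 point per library, a black tick at the mean of the 3 log2 values, and dashed lines at 1 and 10 RPKM. Colours give the class of each gene, and open circles mark genes listed in several rows. A group of 9 genes led by Nrp1 (106 RPKM) lies right of the 10 RPKM line, and most open circles lie at the left edge.

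Among the ephrin ligands, both abundant genes were of the transmembrane B class. Efnb2 stood at 28.2, 32.6 and 32.2 RPKM in replicates 1, 2 and 3, and Efnb1 at 21.1, 18.7 and 18.4. The lowest Efnb2 library was above the highest Efnb1 library. The log2 ratio of Efnb1 over Efnb2 was −0.67 ± 0.22, negative in 3 of 3 libraries. Together they made up 92.4% ± 0.338 of the summed RPKM of the 8 ephrin ligand genes. The third B-class ligand, Efnb3, had 9, 18 and 25 counts (0.135 ± 0.0488 RPKM) and was called below 1 RPKM (edgeR adjusted p = 0.0333), which did not hold when replicate 1 or replicate 2 was left out.

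The lipid-anchored A-class ligands were all near or under 2 RPKM. Efna1 stood at 1.67, 1.54 and 1.69 RPKM, a level called above 1 RPKM (edgeR adjusted p = 0.0247). It has 2 rows, and leaving out any single library ended the call (adjusted p = 0.107, 0.0787 and 0.0583 without replicates 1, 2 and 3). Efna4 stood at 1.71, 1.69 and 0.968 RPKM and was unresolved, with replicate 3 low, and 10.5% of its exon bases overlap 4731419I09Rik on the opposite strand. It was called above 1 RPKM without that library (adjusted p = 0.0197). Efna2, a ligand known from osteoclasts, stood at 0.64, 0.541 and 1.33 RPKM and was unresolved, with replicate 3 high. Efna3 was unresolved at 0.103 ± 0.0756 RPKM, and Efna5 was listed at 0 in both of its rows.

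Eph receptors are tyrosine kinases that bind ephrins of the matching class, with some crossing between classes; Epha4 is known to bind B-class ephrins too. Epha3 was the highest, at 81.8, 81.7 and 89.2 RPKM, and alone held 67.3% ± 1.39 of the summed RPKM of the 14 receptor genes. With the longest transcripts this share was 56.9% ± 1.54, and with the shortest 68.5% ± 1.27. Epha4 followed at 16.2, 16.4 and 16.7 RPKM, and Epha2 at 12.7, 13.9 and 12.9. All 3 A-class receptors were called above 10 RPKM by edgeR, with adjusted p = 4.68e-119, 5.66e-17 and 1.62e-05 in that order. DESeq2 did not place Epha2 above 10 RPKM (adjusted p = 0.261).

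The B-class receptors with 1 row were lower. Ephb2 stood at 5.18, 5.28 and 4.77 RPKM and Ephb3 at 4.42, 3.62 and 3.56, both called above 1 and below 10 RPKM by edgeR, though DESeq2 did not place Ephb2 below 10 RPKM. Efnb1 exceeded its receptor Ephb2 with a log2 ratio of 1.91 ± 0.10. With the longest annotated transcripts this ratio was 3.06, and with the shortest 1.52. Ephb4, the best known partner of Efnb2 in bone, had 12, 0 and 0 counts. It has 2 rows, as do Ephb1 (0 counts) and Ephb6 (7, 0 and 0 counts), and low values of such genes are not read as absence. The ratio of Efnb2 to Ephb4 is therefore not read.

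None of the remaining A-class receptors was called above 1 RPKM. Epha1 (1.17 ± 0.18 RPKM) and Epha7 (0.665 ± 0.0899, 2 rows) were unresolved against 1 RPKM, and 7.0% of the exon bases of Epha1 overlap Zyx on the opposite strand. Epha5 (0.303 ± 0.0921) and Epha6 (0.0806 ± 0.0417) were called below, while Epha8 and Epha10 were unresolved with at most 12 counts in any library. The Epha6 call ended when replicate 1 or 2 was left out. In all, 8 of the 20 genes tested in the ephrin system were above 1 RPKM, 3 below and 9 unresolved. The other 2 of the 22 genes were at 0. Of all 21012 genes tested, 43.2% were above and 13.4% below.

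PTH acts on bone cells through a receptor that raises cyclic AMP, and the factor CREB binds the cyclic AMP response element TGACGTCA or its short form TGACG. The motifs searched, and the 4 promoters printed, were chosen after the levels and matches had been seen. RefSeq promoter windows (build GRCm38.p6, 250 bases before to 50 after the start) were found for 61 of the 70 genes, 77 windows in all. The full element, searched on both strands, occurred in 1 of these windows (1.3%), that of Epha2, and in 1.79% of all 32841 windows. The short form, which the full element contains, occurred in 10 windows (13.0%), against 20.8% of all. The matches to TGACG on either strand in the windows of Epha2 and Efnb2, an abundant receptor and the most abundant ligand of the system, are shown in capitals, each 5′ to 3′ on the gene's strand. The Epha2 match, which is the full element read as its overlapping short forms on both strands, begins 33 bases before the start in the window chr4:141300971-141301270 (plus strand). The Efnb2 match begins 110 bases before the start in the window chr8:8661193-8661492 (minus strand).
Epha2: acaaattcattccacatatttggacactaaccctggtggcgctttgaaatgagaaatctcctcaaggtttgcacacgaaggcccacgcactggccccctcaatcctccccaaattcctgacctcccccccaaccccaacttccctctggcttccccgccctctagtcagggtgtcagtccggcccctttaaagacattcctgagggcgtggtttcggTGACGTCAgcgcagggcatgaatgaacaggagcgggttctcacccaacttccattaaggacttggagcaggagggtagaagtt
Efnb2: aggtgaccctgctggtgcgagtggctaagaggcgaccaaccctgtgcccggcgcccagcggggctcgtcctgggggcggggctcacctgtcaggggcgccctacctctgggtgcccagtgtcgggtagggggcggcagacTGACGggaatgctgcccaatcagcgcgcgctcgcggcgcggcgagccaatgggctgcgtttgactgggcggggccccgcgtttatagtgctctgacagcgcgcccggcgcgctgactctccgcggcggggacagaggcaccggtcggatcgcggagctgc
A match describes letters in a window, and no binding was measured.

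Secreted semaphorins were, with Nrp1, the most abundant part of the semaphorin-plexin system. Sema3c stood at 65.0, 53.5 and 65.4 RPKM and Sema3a at 51.5, 50.6 and 60.4, so the 2 genes overlapped between libraries. Together they held 97.3% ± 0.538 of the summed RPKM of the 7 class 3 genes. Sema3d, the next, stood at 1.97 ± 0.336 RPKM and was called above 1 RPKM (edgeR adjusted p = 5.21e-10), though not by DESeq2. Sema3g (0.557 ± 0.0804), Sema3e (0.420 ± 0.0179) and Sema3f (0.228 ± 0.225) were called below. Sema3f varied most of these, with 15, 52 and 7 counts, and its call ended when replicate 1 or 2 was left out. That of Sema3g ended when any of the 3 libraries was left out. Sema3b (2 rows) was unresolved with at most 5 counts in any library. The log2 ratio of Sema3a over Sema3e, a ligand that binds plexin-D1 directly, was 6.70 ± 0.10.

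The promoter windows of the 2 abundant secreted semaphorins differed widely in composition, and neither held TGACG on either strand, so they are printed with no capitals. The Sema3a window, chr5:13396534-13396833 (plus strand), was 41.3% G or C with 2 CG dinucleotides. The Sema3c window, chr5:17574566-17574865 (plus strand), was 75.7% G or C with 42 CG dinucleotides. Over the 77 windows of the 61 genes the medians were 64.3% and 19, against 52.7% and 7 for all promoter windows. The GC box GGGCGG, searched on both strands, occurred in 71.4% of the windows of these genes and in 35.7% of all windows, and the TATA box TATAAA in 2.6% and 13.6%. The CCAAT box, CCAAT on either strand, occurred in 28.6% and 37.4%.
Sema3a: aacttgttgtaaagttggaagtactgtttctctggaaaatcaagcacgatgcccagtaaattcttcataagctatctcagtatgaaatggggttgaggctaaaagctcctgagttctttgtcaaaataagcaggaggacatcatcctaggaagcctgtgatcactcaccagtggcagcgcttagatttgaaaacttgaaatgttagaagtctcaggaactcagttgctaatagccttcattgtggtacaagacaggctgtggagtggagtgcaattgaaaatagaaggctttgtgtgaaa
Sema3c: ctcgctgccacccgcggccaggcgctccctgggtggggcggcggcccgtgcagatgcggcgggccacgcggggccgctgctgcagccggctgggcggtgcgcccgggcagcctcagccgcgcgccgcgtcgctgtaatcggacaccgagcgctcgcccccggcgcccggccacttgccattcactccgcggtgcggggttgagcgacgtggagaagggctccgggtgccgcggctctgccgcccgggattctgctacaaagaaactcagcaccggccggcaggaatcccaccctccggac

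Nrp1, the coreceptor that binds class 3 semaphorins and VEGF, stood at 107, 99.0 and 111 RPKM, the highest mean of the 70 genes except with the shortest transcripts, where Epha3 was higher. It exceeded Sema3a in every library (log2 ratio of Sema3a over Nrp1 −0.97 ± 0.09) and Sema3c in every library (−0.79 ± 0.09). The ratio to Sema3a was −1.21 with the longest and −0.68 with the shortest transcripts. Nrp2, the other coreceptor, was listed at 0 in all 6 of its rows and is not read as absent.

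Plexins are the signalling receptors of semaphorins, and class 3 ligands reach the A-type plexins through neuropilins. Plxna1 stood at 6.53, 7.26 and 8.38 RPKM, Plxnc1, the receptor of Sema7a, at 5.89, 5.63 and 7.08, and Plxna2 at 5.76, 5.88 and 6.31. The replicates of Plxnc1 overlapped with those of Plxna1 and with those of Plxna2. The lowest Plxna1 library was above the highest Plxna2 library. Each of the 3 genes was called above 1 and below 10 RPKM by edgeR. DESeq2 called none of the 3 below 10 RPKM, and with the shortest transcripts Plxna1 was not called below it. The log2 ratio of Plxna1 over Plxna2 was 0.29 ± 0.11 and 0.01 with the longest transcripts, and 10.7% of the exon bases of Plxna1 overlap the noncoding gene Gm26811 on the opposite strand. Plxnd1 (1.01 ± 0.09 RPKM) and Plxna3 (0.801 ± 0.191) were unresolved, and Plxna4 (0.227 ± 0.121) was called below 1 RPKM.

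Of the B-type plexins, Plxnb1 and Plxnb3 were low, while Plxnb2 has 2 rows and its low value is not read as absence. Plxnb1, the receptor of Sema4d, had 46, 81 and 31 counts and a level of 0.151, 0.251 and 0.0792 RPKM, called below 1 RPKM by edgeR (adjusted p = 6.15e-06) but not by DESeq2 (0.488). Plxnb3 stood at 0.0421 ± 0.0149 RPKM and was called below, except when replicate 1 or 2 was left out. Plxnb2 had 0, 3 and 0 counts in 2 rows. It was called below 1 RPKM (edgeR adjusted p = 0.0484), but the call ended without replicate 1 or 3 and with the shortest transcripts, and without replicate 2 the gene is at 0 and was not tested.

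The membrane semaphorins were led by Sema4c, at 6.87, 7.82 and 7.29 RPKM, which held 46.7% ± 4.5 of the summed RPKM of the 13 genes. Sema5a stood at 2.76, 2.90 and 4.29 RPKM, highest in replicate 3, and Sema4b at 2.26, 1.61 and 1.60. Sema7a, which is lipid-anchored, stood at 1.97, 1.23 and 1.89 RPKM, lowest in replicate 2. These 4 genes were called above 1 RPKM by edgeR, and DESeq2 did not call Sema4b or Sema7a. Sema7a was lower than its receptor Plxnc1 in every library, with a log2 ratio of −1.83 ± 0.29, and Sema5a exceeded its paralogue Sema5b with a log2 ratio of 3.95 ± 0.56.

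Sema4d was low at 0.47, 0.39 and 0.465 RPKM and was called below 1 RPKM (edgeR adjusted p = 0.00541), though not by DESeq2 (0.597). Its log2 ratio to Plxnb1 was 1.11 ± 0.59, and 0.32 with a pseudocount of 1, so this ratio of 2 low genes depends on the scale. Also called below were Sema4f, Sema4g, Sema5b, Sema6a, Sema6b and Sema6c, at means between 0.110 and 0.259 RPKM. Of these, Sema4f and Sema6b have 2 rows each, so their low values are not read as absence. Leaving out replicate 2 ended the calls of Sema5b, Sema6b and Sema6c, leaving out replicate 1 ended that of Sema6b, and DESeq2 made none of these 6 calls. Sema4g had 44, 65 and 14 counts and Sema6c 14, 11 and 57, so replicate 3 was the lowest for one and the highest for the other. Sema4a (4 rows) and Sema6d (5 rows) were listed at 0. Over the whole semaphorin-plexin system, 11 of the 28 genes tested were above 1 RPKM, 14 below and 3 unresolved. The other 3 of the 31 genes were at 0. Of all 21012 genes tested, 43.2% were above and 13.4% below. The systems are not compared by these counts, since a call below also depends on transcript length.

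In the Slit-Robo system the ligands Slit2 and Slit3 were higher in every library than any Robo receptor, and Slit1 was not. Slit2 stood at 10.5, 10.6 and 13.0 RPKM and Slit3, known as a product of bone cells, at 1.74, 2.47 and 2.55. The log2 ratio of Slit2 over Slit3 was 2.29 ± 0.23, and Slit2 held 82.1% ± 2.9 of the summed RPKM of the 3 ligands. Slit2 lay just above 10 RPKM (edgeR adjusted p = 0.0268). Leaving out replicate 1 (adjusted p = 0.056) or replicate 3 (0.414) ended the call, as did DESeq2 (0.643) and limma (0.13). With the longest transcripts Slit2 was called below 10 RPKM (log2 level −0.18, edgeR adjusted p = 0.0365). Slit3 was above 1 RPKM (edgeR adjusted p = 2.58e-16), though not by DESeq2 (0.315). Slit1 had 23, 64 and 47 counts and was called below.

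The Robo receptors were all under 1 RPKM in every library. Robo2 stood at 0.324, 0.519 and 0.601 RPKM and Robo1 at 0.327, 0.138 and 0.213, and both were called below 1 RPKM by edgeR (adjusted p = 0.000319 and 1.36e-05) but not by DESeq2 (0.62 and 0.528). Neither was higher in all libraries, since Robo1 matched Robo2 in replicate 1 and was lower in the others. Robo3 and Robo4, the endothelial member, were unresolved with at most 19 counts in any library. The summed RPKM of the 4 receptors was 0.793 ± 0.12, against 13.8 ± 1.73 for the 3 ligands. The log2 ratio of Slit2 over Robo1 was 5.17 ± 0.47, and that of Slit3 over Robo1 was 2.87 ± 0.69. These ratios were 3.33 and 1.40 with a pseudocount of 1.

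In the netrin system, the ligand Ntn1 stood at 6.43, 8.06 and 6.56 RPKM and its receptor Unc5b at 6.83, 8.06 and 7.45. Their log2 ratio was −0.09 ± 0.09, with Unc5b at or slightly above Ntn1 in each library, and it became 0.19 with the longest transcripts, so no order of the 2 genes is read. Unc5c, a second netrin receptor, stood at 4.86, 4.39 and 4.14 RPKM, below the lowest Unc5b library. The log2 ratio of Unc5b over Unc5c was 0.73 ± 0.21 and 1.69 with the longest transcripts. Unc5d was unresolved at 0.874, 0.903 and 1.57 RPKM. Its mean was under 1 RPKM without replicate 3, the highest library, and it was called below 1 RPKM with the longest transcripts (log2 level −1.42, edgeR adjusted p = 9.39e-06).

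Other netrins had means under 1 RPKM. Ntn3 (1.25, 0.798 and 0.715 RPKM) and Ntn4 (0.53, 0.581 and 0.8 RPKM) were unresolved, and Ntn4 was lower than Ntn1 with a log2 ratio of −3.28 ± 0.36. Ntn5, with 1 row and 23.4% of its exon bases overlapping Sec1 on the opposite strand, was listed at 0, which allows up to 3 counts over the libraries, or 0.0162 RPKM, for counting error only. Unc5a was counted 9 times in replicate 2 only. Of the 8 genes, 1 was at 0. By edgeR, 3 of the 7 tested were above 1 RPKM, 0 below and 4 unresolved. Of all 21012 genes tested, 43.2% were above and 13.4% below. Among the netrin genes, edgeR also placed 0 below at an unadjusted p under 0.05. By contrast, limma called 1 below (Unc5a), and DESeq2 called 0, with 1 at an unadjusted p under 0.05 (Unc5a).

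Low values went with the number of rows that a symbol has, and the cause was not tested. Of the 70 genes, 57 had 1 row and 13 had several rows under the same symbol. With 1 row, 24 of 57 were above 1 RPKM and 1 was at 0, and with several rows 1 of 13 was above and 5 were at 0. The same held over all genes: 5.04% of the 19753 genes with 1 row were at 0 in every library, against 31.6% of the 3295 with several rows. Above 1 RPKM were 43.1% and 17.1%. The 13 genes include Ephb4, Nrp2, Plxnb2 and Sema6d, all studied in bone. These 4 had at most 12 counts in any library, and no ratio is read for any of the 13.

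**Figure D2:**
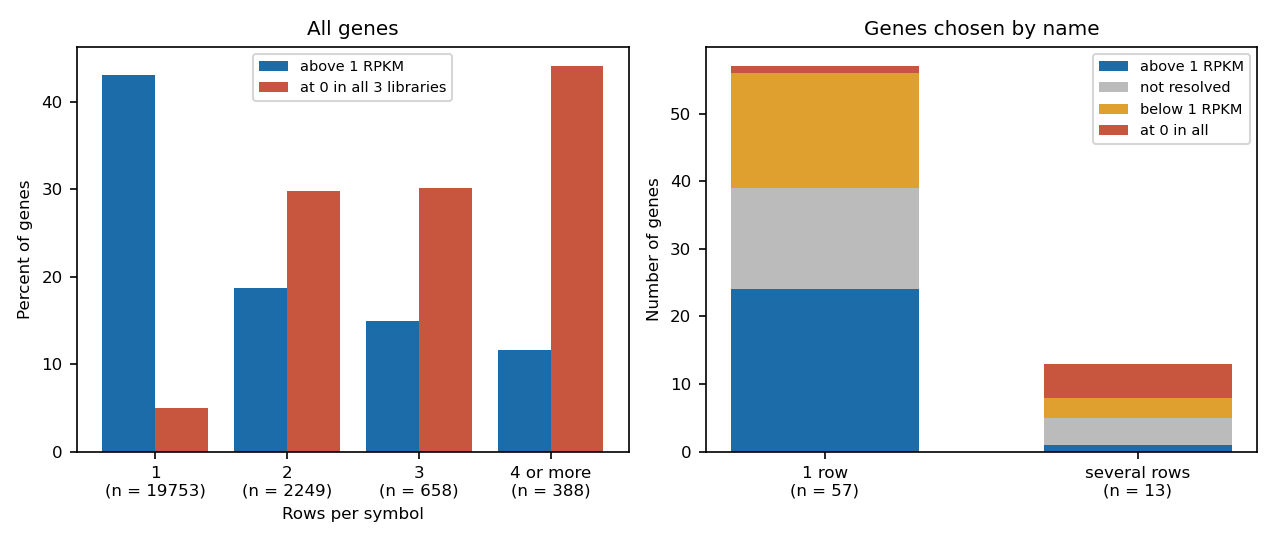
Left, percent of all genes above 1 RPKM and at 0 in all 3 libraries, by the number of rows per symbol. Right, number of the 70 genes in each call, for genes with 1 row (57) and with several rows (13). Genes with several rows are more often at 0 (31.6% against 5.04%).

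Within libraries, 27 pairs of a ligand and its receptor, or of 2 related genes, were compared, of which 18 have 1 row for both genes. In 17 of these 18 the difference had the same sign in all 3 libraries, the exception being Robo1 and Robo2. Among the 17 is Ntn1 with Unc5b, whose log2 ratio in replicate 2 was −0.00025 and for which no order is read. The count of 17 was added after the values were seen. It was not set beside pairs of other genes, so it is not read as a trait of these pairs. An exact two-sided sign-flip permutation test over 3 libraries cannot give a p below 0.25, so none of these differences can pass that test. The ligand was the lower partner for Sema3a and Sema3c with Nrp1, Sema3e with Plxnd1 (log2 ratio −1.09 ± 0.11), Sema7a with Plxnc1 and Efna2 with Epha2 (−3.92 ± 0.65). It was the higher partner for Efnb1 with Ephb2, Sema4d with Plxnb1, and Slit2 and Slit3 with Robo1. Levels between genes were compared per length on the log2(RPKM + 0.1) scale, which understates ratios of low genes.

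**Figure D3:**
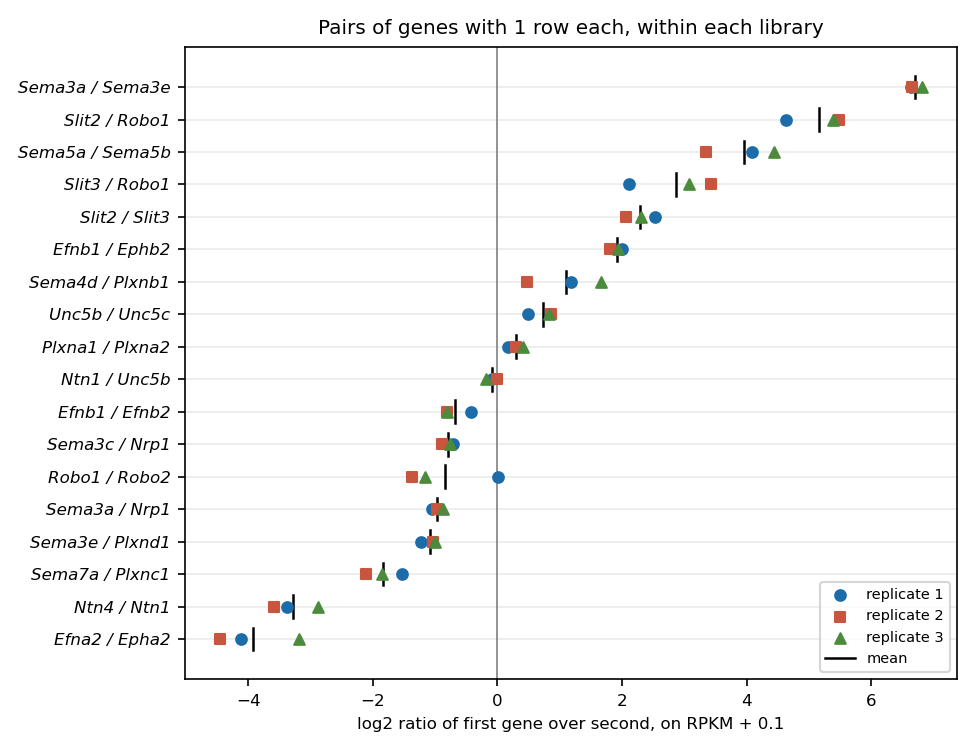
Within-library log2 ratio of the first gene over the second, on RPKM + 0.1, for the 18 pairs in which both genes have 1 row; symbols are the 3 replicates and black ticks the means. Ratios run from −3.92 (Efna2 over Epha2) to 6.70 (Sema3a over Sema3e), and Robo1 over Robo2 is the pair whose replicates straddle 0.

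For the 9 genes of the 4 systems above 10 RPKM, the SD of log2(RPKM + 0.1) between libraries ran from 0.0226 (Epha4) to 0.171 (Slit2). Over the 29 genes with a mean of 1 RPKM or more, the median SD of log2(RPKM + 0.1) was 0.141, against 0.169 over all 9883 such genes. Epha4 had the smallest SD of the 29, at 0.0226, and Unc5d, Efna4 and Sema7a the largest, at 0.436, 0.435 and 0.355. Each of those 3 had 1 library apart from the other pair: replicate 3 was high for Unc5d and low for Efna4, and replicate 2 was low for Sema7a.

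**Figure D4:**
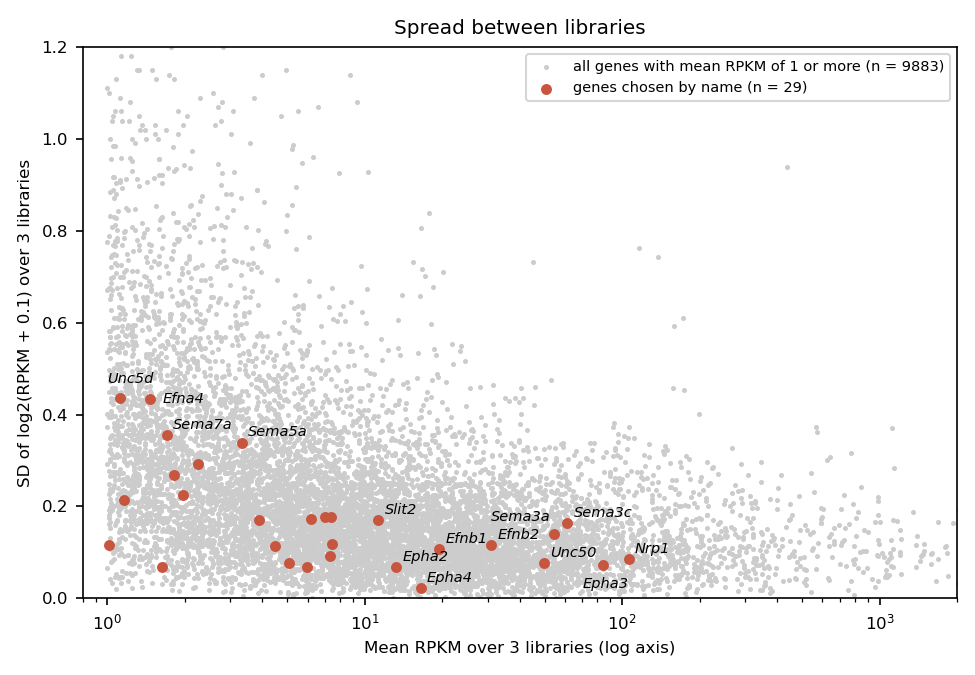
SD of log2(RPKM + 0.1) over 3 libraries against mean RPKM (log axis) for all genes with a mean of 1 RPKM or more (grey, 87 of 9883 lie outside the axes) and for 29 of the 70 genes (red). Nrp1 (0.0849) and Epha3 (0.073) lie lower than Sema3c (0.164) and Slit2 (0.171), and Unc5d, Efna4 and Sema7a lie highest among the red points.

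Genes that work with these families were taken from a list of 44, of which 43 had a value. The list was chosen with earlier results of these data known, so its shares are not read as a trait of these genes. Their median was 2.30 RPKM. The edgeR test put 27 of the 41 tested above 1 RPKM (65.9%, against 43.2% of all genes) and 8 below it (19.5%, against 13.4%), 6 could not be resolved, and Crmp1 and Vegfa, each with several rows, were listed at 0. The highest were the adhesion receptor subunit Itgb1 (652 ± 39.9 RPKM), the GTPases Cdc42 (235 ± 43.6) and Rhoa (126 ± 20.4), the actin-severing protein Cfl1 (220.4 ± 14.5), the kinase Rock2 (60.4 ± 3.67) and the GTPase Rac1 (47.6 ± 7.31). Dcc, the attractive netrin receptor, had 65, 95 and 90 counts (0.280 ± 0.0488 RPKM) and was called below 1 RPKM. Neo1, its relative, was also below at 0.187 ± 0.0485 RPKM but has 2 rows. Flrt2, an Unc5 ligand, stood at 41.2 ± 8.72 RPKM and Gpc1, a proteoglycan that binds Slit2, at 46.9 ± 0.543; both were chosen after their values were seen.

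Markers of the labelled cell type were checked in the same libraries. Of 12 osteoblast and osteocyte genes, 8 were above 1 RPKM, led by Sparc at 6409 ± 408 RPKM. Pdpn (155.7 ± 27.6 RPKM) and Phex (9.05 ± 0.94) were also among the 8. The other 4 genes of this list, Dmp1 (0.652 RPKM), Mepe (0.436), Sost (0.00917) and Fgf23 (0.267), had means under 1 RPKM. They were unresolved by the test. Dmp1 had 77, 115 and 6 counts, and Sost 2, 0 and 0. Markers of other cell types had summed levels per library of 2.83 to 3.57 RPKM for 4 neuron genes and 3.10 to 4.27 for 5 Schwann cell genes. The sums were 2.93 to 3.38 for 6 endothelial genes and 0.442 to 1.65 for 5 osteoclast and macrophage genes. Of these genes, Tubb3 (2.84 RPKM), Kdr (2.62) and Mbp (2.11, 8 rows) were above 1 RPKM and had higher means than Dmp1, Mepe, Sost and Fgf23. Pecam1, Emcn and Acp5 were at 0 with several rows each. Syn1 and Ptprc, with 2 rows each, were near 0, and low values of such genes are not read as absence. The part of such cells in the levels above was not tested.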

How the data were processed

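The deposited values are whole numbers per row and were read as raw counts: the authors' file names say RPKM, but times length in kilobases the values sum to between 111222095 and 144757978 per library, where RPKM would give 1000000. Per the submitters' processing notes the authors used TopHat and the mouse build mm9. Versions, counting tool, annotation and strand setting: not given in the sources used here. Libraries held 35195518, 37299517 and 45240005 counts. The 30795 rows were summed to 25410 symbols. Lengths were medians over GENCODE M21 basic transcripts (GRCm38); all 70 genes matched. Only RefSeq promoter windows carry positions, since the builds differ. Levels were tested against 1 and 10 RPKM with edgeR 4.0.16 in R 4.3.3 (trended dispersion, robust, offset at the threshold, Poisson bound on p, Benjamini-Hochberg adjustment over 21012 genes above 0). In simulated data of 20508 genes, the test against 1 RPKM called 50 of 50 genes set 4-fold above it, 18 of 50 set 4-fold below it and 2 of 100 set at it. Alternatives were limma 3.58.1, DESeq2 1.42.0, TMM scaling, a count minimum of 10, other transcript lengths, averaged rows, a pseudocount of 1 in place of 0.1 for ratios, and leaving out each library. Named genes were those with a mean of 10 RPKM or more, the highest of each class, both genes of each pair, those known in bone, those with several rows, the 3 with the largest spread and, of the partner genes, the 6 highest with Dcc and Neo1; other names were chosen after their values were seen. The members and lists were chosen with earlier results of these data known. Rbfox3, Map2, Ocstamp and Draxin were not analysed here, and Adgre1 was read under its older symbol Emr1. Reads carry no molecular identifiers, so floors cover counting error only.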

Additional observations from a re-analysis of the deposited data

How the results depend on the processing

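No paired analysis was possible because the libraries form a single group. Of the 70 genes, 25 were above 1 RPKM by edgeR, 24 to 25 with a library left out and 20 with DESeq2. Those above 10 RPKM were 10, 9 to 10 with a library left out and 8 with DESeq2. Those below 1 RPKM were 20, 11 to 18 with a library left out, 1 with DESeq2 (Plxnb2) and 30 with limma. Over all genes, those below 1 RPKM were 2816, 1223 without replicate 1, 910 without replicate 2, 268 with DESeq2 and 9855 with limma. The cause was not tested. Those below 10 RPKM were 54, 41 to 51 with a library left out and 47 with DESeq2, which lost Ephb2, Ntn1, Plxna1, Plxna2, Plxnc1, Sema4c and Unc5b; the shortest transcripts lost Plxna1 and Unc5b. The count of pairs with 1 sign, added after seeing the data, was 17, and 16 to 18 under its alternatives.

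Among levels of named genes (log2 against 1 RPKM) under all alternatives, 369 kept direction and call, 25 lost the call, 6 gained one and 5 turned. With a library left out, the genes concerned ranged from 0.68 to 0.75 for Efna1, 0.41 to 0.77 for Efna4, −7.35 to −7.31 for Plxnb2, −0.063 to 0.062 for Plxnd1, −3.32 to −1.66 for Sema3f, −3.53 to −2.74 for Sema5b, −3.83 to −2.95 for Sema6b and −0.17 to 0.31 for Unc5d. Plxnd1 turned without replicate 1 (−0.063) and Unc5d without replicate 3 (−0.17), neither with a call. DESeq2 lost 5 calls above and 19 below 1 RPKM among the 70 genes. Those of genes named by rule were Efna1 (0.71), Sema7a (0.76), Slit3 (1.17), Robo2 (−1.05), Sema4d (−1.18), Sema3e (−1.25), Sema4f (−1.95), Sema3f (−2.13), Robo1 (−2.14), Plxnb1 (−2.64), Sema5b (−3.02) and Sema6b (−3.18), at nearly unchanged levels; the others were Sema3d and Sema4b above, and Efnb3, Epha5, Epha6, Plxna4, Plxnb3, Sema3g, Sema4g, Sema6a, Sema6c and Slit1 below. limma called Sema3b (−3.09), Ephb4 (−3.17) and Ephb6 (−3.26) below, and also Efna3, Epha10, Epha8, Robo3, Robo4, Unc5a and Unc5cl, 10 in all. The longest transcripts ended the call of Efna1 (0.57), gave one to Epha7 (−1.09) and turned Unc5d (−1.42). The shortest ended that of Plxnb2 (−7.91) and turned Epha7 (0.44) with no call. Averaged rows turned Efna1 (−0.29), ended the call of Sema6b (−4.19) and gave one to Epha7 (−1.59).

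Log2 ratios moved by more than their SD as follows. With the longest transcripts they were 3.06 for Efnb1 over Ephb2, −1.21 for Sema3a over Nrp1, 6.46 for Sema3a over Sema3e, 0.014 for Plxna1 over Plxna2, 1.94 for Slit2 over Slit3 and 1.69 for Unc5b over Unc5c, and Ntn1 over Unc5b turned to 0.19. With the shortest they were 1.52 for Efnb1 over Ephb2, −0.68 for Sema3a over Nrp1, 6.99 for Sema3a over Sema3e, 0.64 for Plxna1 over Plxna2, −0.45 for Ntn1 over Unc5b and 0.99 for Unc5b over Unc5c. With a pseudocount of 1 they were 1.75 for Efnb1 over Ephb2, −2.97 for Efna2 over Epha2, 5.27 for Sema3a over Sema3e, −0.50 for Sema3e over Plxnd1, 0.32 for Sema4d over Plxnb1, −1.42 for Sema7a over Plxnc1, 1.93 for Sema5a over Sema5b, 3.33 for Slit2 over Robo1, 1.40 for Slit3 over Robo1, 1.93 for Slit2 over Slit3 and −2.29 for Ntn4 over Ntn1. Pairs with a several-row gene are printed only to show this and are not read as ratios, since all of those genes except Efna1 are at or near 0 and the pseudocount largely sets the value. With a pseudocount of 1 they were 4.96 for Efnb2 over Ephb4, −6.41 for Efna5 over Epha3, −2.43 for Efna1 over Epha2, −2.56 for Ephb4 over Ephb2, 0.28 for Sema3f over Nrp2, 6.74 for Nrp1 over Nrp2, 3.05 for Sema4c over Plxnb2, 0.21 for Plxnb1 over Plxnb2 and −3.06 for Sema6d over Plxna1. With the longest transcripts Efna5 over Epha3 was −8.81, Ephb4 over Ephb2 −4.27 and Sema6d over Plxna1 −5.94. With the shortest Efna5 over Epha3 was −10.1, Sema4c over Plxnb2 6.21 and Sema6d over Plxna1 −6.57. With averaged rows Efna1 over Epha2 was −3.86.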
